A study of Mus musculus with 2 samples.

Results

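The cytosolic nucleic acid and NOD sensors, with the adaptor and kinases that act directly after them, were examined in macrophages lacking Tipe1 and in control macrophages. The 10 genes were taken by symbol from a deposited count table of 46095 genes: Ddx58, Ifih1, Dhx58, Mavs, Tbk1, Ikbke, Zbp1, Aim2, Nod1 and Nod2. All 10 reached a mean of at least 1 CPM (reads per 1000000, scaled as below) and were among the 12495 genes that did so, which are called the tested genes below. Macrophages were grown for 5 days from femur and tibia marrow of C57BL/6 mice with 100 ng/ml M-CSF, the cytokine that turns marrow progenitors into macrophages. The knockout (KO) macrophages carry the genotype label TIPE1-/-, and the series' design text gives the mice as LyzM-Cre; Tipe1f/f, in which Cre recombinase is expressed from the lysozyme locus in myeloid cells. The control (WT) macrophages are labelled wild type, while the design text gives their mice as Tipe1f/f. Floxed alleles may thus be common to both groups, and the Cre allele was in the KO mice alone, so an effect of Cre and an effect of losing Tipe1 cannot be told apart. No stimulus is named in the labels. The sources used here give no age, sex or number of mice per library.

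Each genotype was represented by 1 library, so the differences below were not checked in replicates and genotypes could not be tested against each other. Reads were scaled to CPM with TMM library sizes, and each ratio of KO over WT is followed in parentheses by its 95% counting interval. The interval (exact, Clopper-Pearson) comes from how a gene's reads divide between the libraries and covers counting error only. It treats each read as independent. Genes at least 1.5-fold apart whose interval excluded 1 were counted as higher or lower.

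Macrophages read microbial material inside the cell through several families of sensors. RIG-I (Ddx58) and MDA5 (Ifih1) bind viral double-stranded RNA and pass the signal to MAVS on mitochondria, LGP2 (Dhx58) modulates both, and the kinases TBK1 and IKK-epsilon (Ikbke) then phosphorylate the factors that switch on interferon genes. ZBP1 binds nucleic acid in the Z conformation and can start necroptosis, AIM2 binds cytosolic DNA and builds an inflammasome, and NOD1 and NOD2 detect fragments of bacterial peptidoglycan. Several of these genes are themselves induced by interferon, which makes sensing self-reinforcing.

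Promoter sequence was looked at first, since members that stood together in the data could share motifs. RefSeq promoter windows (GRCm38.p6, 250 bases before to 50 after the start) were matched for 8 of the 10 genes, and Dhx58 and Zbp1 were not matched. Nod1 had 2 windows and is counted once as a gene, whereas the shares given beside the members are shares of windows. The core of the interferon-stimulated response element, searched on both strands as GAAA, any 2 bases and GAAA again, was held by the windows of 2 of the 8 genes, Ddx58 and Ifih1. It was held by 3.44% of all 32851 windows of that length and by 3.25% of those of tested genes. The matches are printed in capitals within 30 bases around them, because both sensors had nearly the same ratio between the libraries (below).
Ddx58: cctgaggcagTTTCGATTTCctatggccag
Ifih1: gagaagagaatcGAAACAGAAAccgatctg

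The Ddx58 stretch lies at chr4:40239804-40239833 and the Ifih1 stretch at chr2:62646206-62646235, both on the minus strand. The Ddx58 match began at base 3 after the RefSeq start and the Ifih1 match at base 33 after it. A match of this kind is a description of letters and not evidence of a binding site.

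The 2 kinases are printed as a second set, because their ratios between the libraries lay apart (below). A loose kappa B motif, searched on both strands as GGG, any 5 bases and CC, had 2 matches in the Tbk1 window and 0 in the Ikbke window. That motif is common, being held by 66.4% of windows of tested genes and by those of 3 of the 8 members: Tbk1, Nod1 and Nod2. The stretches are the parts of the windows upstream of every annotated start of the gene, with kappa B matches in capitals.
Ikbke: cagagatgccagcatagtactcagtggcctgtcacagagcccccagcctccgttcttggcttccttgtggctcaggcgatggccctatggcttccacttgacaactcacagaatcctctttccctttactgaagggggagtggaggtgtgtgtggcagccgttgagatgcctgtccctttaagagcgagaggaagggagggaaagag
Tbk1: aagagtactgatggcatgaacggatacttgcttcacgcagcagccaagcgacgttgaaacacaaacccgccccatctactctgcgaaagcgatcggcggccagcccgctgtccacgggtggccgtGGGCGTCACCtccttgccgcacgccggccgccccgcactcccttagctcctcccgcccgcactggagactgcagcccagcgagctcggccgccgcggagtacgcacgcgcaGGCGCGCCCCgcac

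The Ikbke stretch lies at chr1:131279607-131279813 and the Tbk1 stretch at chr10:121586795-121587044, both on the minus strand. The gamma-activated site was searched as TTC, any 3 bases and GAA, which reads the same on both strands. It was held by 1 of the 8 members, Nod1, and by 7.03% of the windows of tested genes. In Nod1 this match and the kappa B matches lay in different windows. No match says only that these letters are not in this window.

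Depth was 11782664 counted reads in WT macrophages and 15815956 in KO macrophages, and the 10 genes had between 150 and 7842 reads each. Tnfaip8l1, which encodes TIPE1, had 21 reads in WT macrophages and 3 in KO macrophages, although no source used here names the exons that Cre removes. Core macrophage markers summed to 53262 CPM in WT macrophages and 57384 CPM in KO macrophages, with Aif1 alone of 22 listed at 0 in both. Markers of other cell types also differed between the libraries. In the KO culture 18 of 19 tested fibroblast and stromal markers were lower and 0 higher, with a sum of 213 against 2350 CPM, with Tagln listed at 0 in both. Monocyte markers summed to 596 against 1320 CPM (5 of 11 tested lower, 2 higher), neutrophil markers to 899 against 1201 CPM (5 of 13 lower, 0 higher) and B cell markers to 50.1 against 61.3 CPM (5 of 6 lower, 0 higher). Cd22 (47.5 against 46.5 CPM) made up most of the B cell sum. The 5 lower B cell markers were few in reads, such as Cd79a with 10 in KO and 40 in WT macrophages. Dendritic cell markers summed to 648 against 479 CPM (2 of 4 tested higher, 1 lower) and those of T and NK cells to 37.1 against 25.6 CPM (2 of 5 higher, 0 lower). These last sums do not show that the cell types differed, because Bst2 (347 against 218 CPM), Itgax (193 against 72.0) and Tcf4 (103 against 186) made up nearly all of the dendritic sum and Cd4 (27.6 against 17.6) most of the other. Lineage markers were few in reads. Cd3e had 20 reads in both libraries, a ratio of 0.783 (0.400 to 1.53) after scaling, Zbtb46 6 in WT and 8 in KO macrophages, and Clec9a 8 and 11. Others stood further apart: Cd8a had 23 reads in WT and 51 in KO macrophages, a ratio of 1.74 (1.04 to 2.98), Cd3d 4 and 14, and Batf3 7 and 18. The intervals of Cd3d and Batf3 included 1. Trac and Cd209a were listed at 0 in both libraries and Siglech in KO macrophages. The part of these cells in the results below was not tested, and in bulk RNA fewer cells of a type and less RNA per cell cannot be told apart.

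Of the 10 genes 6 were higher in KO macrophages, 0 lower and 4 neither. The 6 were Ikbke, Zbp1, Dhx58, Ddx58, Nod2 and Ifih1, with ratios from 1.58 to 1.94, and the 4 were Aim2, Tbk1, Mavs and Nod1, with ratios from 1.09 to 1.23. Among all tested genes 6.47% were higher by the same rule and 7.23% lower. Of those with a mean of at least 10 CPM, which include all 10 genes, 412 were higher and 223 lower. The ratio was above 1 for all 10 genes, as it was for 51.8% of tested genes, and the interval lay above 1 for 8 of the 10, as it did for 22.8%. These last shares are not like for like, because intervals narrow with more reads. Tested genes reach down to a mean of 1 CPM, while the lowest mean of the 10 was 16.1 CPM (Nod2). None of the 10 had a ratio of 2 or more, which 2.68% of tested genes had. On the log2 scale, with 0.5 CPM added to both libraries, the median ratio was 0.66 over the 10 genes and 0.01 over all tested genes. No gene of the 10 had a ratio between 1.23 and 1.58. Among the 4 under the limit, the intervals of Aim2 and Tbk1 still lay above 1.

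The count of 6 depended on the scaling. When the libraries were scaled to equal sums of core macrophage markers, every ratio was multiplied by 0.928 and 3 genes were counted as higher: Ikbke, Zbp1 and Dhx58. Ddx58 then stood at 1.498, Nod2 at 1.48 and Ifih1 at 1.47, just under the limit of 1.5. Among all genes averaging at least 1 CPM, 583 were higher and 1177 lower under that scaling, against 808 (6.47% of tested genes) and 904 under TMM. As shares of the genes counted in either direction, not of tested genes, 33.1% were higher under that scaling and 47.2% under TMM. Leaving the stromal markers out of the scaling multiplied every ratio by 0.9998 and left 6 genes higher. The ratio of each of the 10 genes stayed above 1 under all 5 other scalings, from 1.01 for Nod1 upwards. In 1 of these the KO library was thinned to the WT depth.

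**Figure D1:**
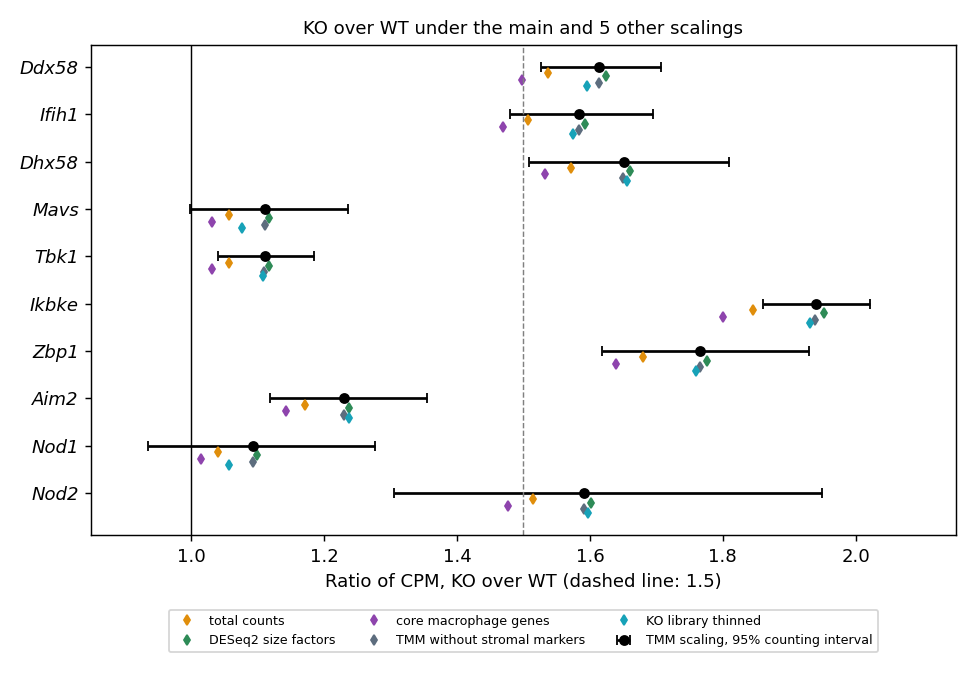
Ratio of CPM of KO over WT for the 10 sensor genes (horizontal axis, linear). Black points with bars give TMM scaling with the 95% counting interval, diamonds the 5 other scalings, and the dashed line a ratio of 1.5. Ikbke, Zbp1, Dhx58, Ddx58, Nod2 and Ifih1 lie at 1.58 to 1.94 and the other 4 genes at 1.09 to 1.23 under TMM; scaling to macrophage markers moves every gene to the left.

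The 3 RNA helicase sensors were higher in KO macrophages by nearly the same ratio. Ddx58, which encodes RIG-I (chromosome 4, 40203773 to 40239828, minus strand, protein-coding), had 1848 reads or 153 CPM in WT macrophages and 3811 reads or 247 CPM in KO macrophages, a ratio of 1.61 (1.53 to 1.71). Ifih1, which encodes MDA5 (chromosome 2, 62595798 to 62646255, minus strand), had 1279 reads or 106 CPM and 2587 reads or 168 CPM, a ratio of 1.58 (1.48 to 1.69). Dhx58, which encodes LGP2 (chromosome 11, 100694884 to 100704271, minus strand), had 700 reads or 58.0 CPM and 1476 reads or 95.7 CPM, a ratio of 1.65 (1.51 to 1.81). The intervals of these ratios overlapped one another. Within a library, where no scaling enters, Ifih1 had 0.692 reads per Ddx58 read in WT macrophages and 0.679 in KO macrophages, a change by a factor of 0.981 (0.898 to 1.07, exact conditional interval). Dhx58 had 0.379 and 0.387 reads per Ddx58 read, a factor of 1.02 (0.919 to 1.14). Both factors had intervals that include 1, so a change in the proportions of the 3 helicases was not detectable at this depth. Of all tested genes, between 4.37% and 5.26% had a larger log2 ratio than each of them.

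Mavs, the adaptor that both RNA sensors signal through (chromosome 2, 131234063 to 131248025, plus strand), did not pass the limit. It had 585 reads or 48.4 CPM in WT macrophages and 830 reads or 53.8 CPM in KO macrophages, a ratio of 1.11 with an interval that includes 1 (0.998 to 1.24). Ddx58 reads per Mavs read went from 3.16 in WT macrophages to 4.59 in KO macrophages, a factor of 1.45 (1.29 to 1.64). Judged by this interval, which treats each read as independent, Ddx58 and Mavs stood in different proportion in the 2 libraries, whatever the scaling.

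The 2 kinases differed in their ratios. Ikbke, which encodes IKK-epsilon (chromosome 1, 131254343 to 131279606, minus strand), was the most abundant of the 10 by CPM in both libraries and had the largest ratio. It had 3165 reads or 262 CPM in WT macrophages and 7842 reads or 508 CPM in KO macrophages, a ratio of 1.94 (1.86 to 2.02), and 2.26% of tested genes had a larger log2 ratio. Tbk1, its close relative (chromosome 10, 121546455 to 121586787, minus strand), had 1581 reads or 131 CPM and 2243 reads or 145 CPM, a ratio of 1.11 (1.04 to 1.18). The Tbk1 interval included 1 with total counts as library sizes (0.991 to 1.13) and with scaling to macrophage markers (0.966 to 1.10). Ikbke had 2.00 reads per Tbk1 read in WT macrophages and 3.50 in KO macrophages, a factor of 1.75 (1.62 to 1.89). Mavs reads per Tbk1 read were 0.370 in both libraries, and the interval of the change ran from 0.882 to 1.13. These read ratios, 7 pairs in all, were chosen after the values of the genes had been seen.

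**Figure D2:**
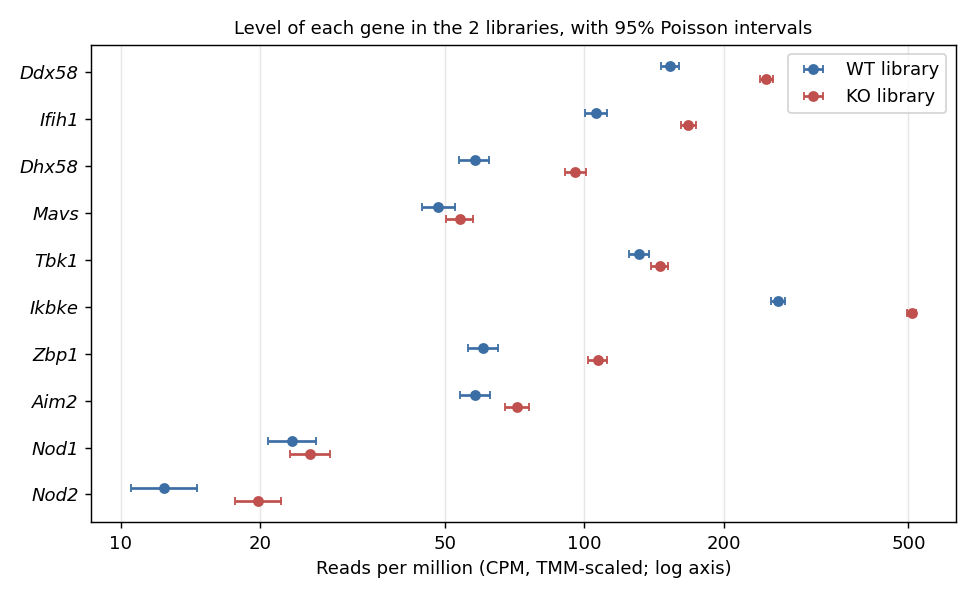
CPM of each of the 10 genes (horizontal log axis) in WT (blue) and KO (red) macrophages, 1 library per genotype, with 95% Poisson intervals of the read count as bars. Ikbke is highest in both libraries, at 262 and 508 CPM, and Nod2 lowest, at 12.4 and 19.8 CPM; only for Mavs and Nod1 do the bars of the 2 libraries overlap.

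The remaining nucleic acid sensors were unequal. Zbp1 (chromosome 2, 173206612 to 173218923, minus strand) had 731 reads or 60.5 CPM in WT macrophages and 1649 reads or 107 CPM in KO macrophages, a ratio of 1.77 (1.62 to 1.93). Aim2 (chromosome 1, 173350879 to 173466040, plus strand) had 703 reads or 58.2 CPM and 1105 reads or 71.6 CPM, a ratio of 1.23 (1.12 to 1.35), which is under the limit although the interval lies above 1. These genes were nearly equal in reads in WT macrophages, at 1.04 Zbp1 reads per Aim2 read, and stood at 1.49 in KO macrophages, a factor of 1.44 (1.26 to 1.64).

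The NOD receptors were the least abundant members and also differed from each other. Nod2, which detects muramyl dipeptide (chromosome 8, 88647315 to 88688474, plus strand), had 150 reads or 12.4 CPM in WT macrophages and 305 reads or 19.8 CPM in KO macrophages, a ratio of 1.59 with the widest interval of the 6 higher genes (1.31 to 1.95). Nod1, which detects peptidoglycan carrying diaminopimelic acid (chromosome 6, 54923949 to 54972612, minus strand), had 283 reads or 23.4 CPM and 395 reads or 25.6 CPM, a ratio of 1.09 (0.936 to 1.28). Nod2 reads per Nod1 read went from 0.530 to 0.772, a factor of 1.46 (1.13 to 1.88). Both receptors were low beside the RNA sensors, so their ratios are the least precise of the 10.

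**Figure D3:**
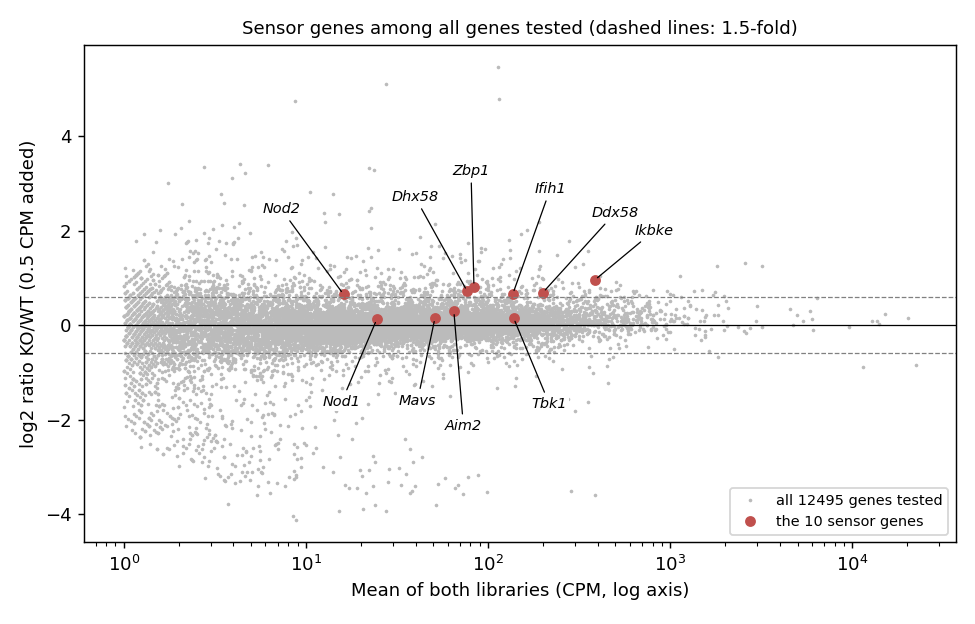
Log2 ratio of KO over WT with 0.5 CPM added (vertical axis) against mean CPM (horizontal log axis) for all 12495 tested genes (grey) and the 10 sensor genes (red); dashed lines mark 1.5-fold in either direction. The 6 higher genes lie above the upper dashed line at mean levels from 16.1 CPM (Nod2) to 385 CPM (Ikbke), and Aim2, Tbk1, Mavs and Nod1 lie between the lines, above 0.

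Levels of different genes were compared per kilobase of exon, with the union of exons in the GENCODE M21 basic set as length. In the WT library the order was Ikbke (79.2 CPM per kilobase), Tbk1 (43.3), Ddx58 (39.5), Zbp1 (27.97), Dhx58 (24.03), Aim2 (20.5), Ifih1 (19.4), Mavs (15.6), Nod1 (5.32) and Nod2 (2.57). Within that order the counting intervals of Tbk1 and Ddx58, and of Aim2 and Ifih1, overlapped, so those neighbours are not resolved. In the KO library Ddx58 (63.8 CPM per kilobase) and Zbp1 (49.4) stood before Tbk1 (48.1), with Ikbke still first (154) and Nod2 last (4.10). The intervals of Zbp1 and Tbk1 overlapped there. The order at the top depends on the gene models: with every exon of the comprehensive set, where Ikbke is 9018 rather than 3309 bases long, Tbk1 (33.5) stood before Ikbke (29.1) in WT macrophages. With those lengths Ikbke (56.4) was first in KO macrophages, and Tbk1 (37.2) then stood before Ddx58 (35.0) and Zbp1 (30.3), so the KO order of these genes turns with the gene models as well.

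The exons of Dhx58 share 141 bases with an antisense gene, Dhx58os, which had 0 reads in both libraries. Those of Ikbke share 40 and 20 bases with the antisense genes Gm28914 and Gm28913, which were not analysed here. Whether counting used strand is not stated in the sources at hand, so reads from these overlaps cannot be assigned. The other 8 genes had no exon in common with another annotated gene.

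Genes that act with the sensors were described from 8 lists of 224 genes, of which 211 were tested. Of these, 23 were higher in KO macrophages, 6 lower and 182 neither, beside 6.47% higher and 7.23% lower among all tested genes. The share of higher genes was 40.0% in the list of other RNA sensors and 19.0% among inflammasome genes. In the other 6 lists it lay between 2.33% and 11.1%, on both sides of the share over all tested genes, so their counts are given as a description and not as a result about those pathways. The lists share members. Close copies within the Oas1, Ifit, Gbp and Nlrp1 families can exchange reads, so their values are uncertain.

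The list of other RNA sensors, mostly induced by interferon, held the most higher genes, 8 of 20, with 0 lower, 12 neither and a median log2 ratio of 0.52. The IFIT proteins bind foreign RNA ends: Ifit2 stood at 355 against 126 CPM, a ratio of 2.81 (2.66 to 2.98), Ifit1 at 168 against 68.1 CPM, 2.47 (2.28 to 2.67), and Ifit3 at 196 against 87.8 CPM, 2.24 (2.08 to 2.40). Oasl1, an OAS-like protein, stood at 107 against 49.3 CPM, 2.16 (1.97 to 2.38). Ddx60, a helicase linked to RIG-I signalling, stood at 89.2 against 47.3 CPM, 1.89 (1.71 to 2.08). The intervals of these 5 genes lay above the interval of Ddx58 (1.53 to 1.71).

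The RIG-I-like receptor list is made of ubiquitin ligases, adaptors and cofactors. Of 43 tested genes 1 was higher (Ddx60) and 0 lower, the other 42 did not pass, and the median log2 ratio was 0.06, over members with ratios on both sides of 1. Trim25, the ubiquitin ligase that activates RIG-I, stood at 320 against 275 CPM, a ratio of 1.16 (1.11 to 1.21), and the annexin gene Anxa2 at 475 against 325 CPM, 1.46 (1.41 to 1.52). Lgals9, a galectin gene, had a ratio of 1.34 (1.26 to 1.42) and Traf5, an adaptor gene, 1.25 (0.967 to 1.62). Ppp1cc, a subunit of the phosphatase that removes inhibitory phosphates from RIG-I and MDA5, was 1.49-fold lower (1.32 to 1.69), just under the limit.

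Of 30 tested partners of TBK1 and IKK-epsilon 2 were higher, 0 lower, while 28 did not pass and the median was 0.19. The higher genes were Irf7, an interferon regulatory factor that these kinases activate, at 592 against 359 CPM, a ratio of 1.65 (1.59 to 1.71), and Ticam2, the TLR adaptor TRAM, at 76.8 against 48.8 CPM, 1.57 (1.42 to 1.74). Irf3, the other main substrate, stood at 43.3 against 49.6 CPM, 1.15-fold lower (1.02 to 1.28) and under the limit. Tank, a scaffold of these kinases, had a ratio of 1.38 (1.28 to 1.48) and Ticam1, the TLR adaptor TRIF, 1.33 (1.17 to 1.52). Rnf144b, a ubiquitin ligase gene, was 1.36-fold lower (1.17 to 1.58), under the limit.

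DNA sensing beside AIM2 had 2 of 38 tested genes higher, 2 lower, while 34 did not pass and the median was 0.01. Mb21d1, which encodes the DNA sensor cGAS, stood at 22.5 against 20.04 CPM, a ratio of 1.12 (0.950 to 1.33). Its partner STING (Tmem173) stood at 33.2 against 41.6 CPM, 1.25-fold lower (1.11 to 1.42) and under the limit. The higher genes were Usp18, an inhibitor of interferon receptor signalling, at 1.68 (1.52 to 1.85), and Trim56, a ubiquitin ligase of this pathway, at 1.60 (1.37 to 1.87). The lower genes were Enpp1, which breaks down the messenger made by cGAS, 1.51-fold lower (1.28 to 1.79), and Xrcc5, the DNA repair protein Ku80, with 28 reads in KO macrophages and 48 in WT macrophages. Samhd1, a dNTP hydrolase, had a ratio of 1.35 (1.31 to 1.40) and Rnaseh2a, an RNase H2 subunit, 1.32 (1.08 to 1.60).

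Around AIM2, 4 of 21 tested inflammasome genes were higher, 1 lower, while 16 did not pass and the median was 0.16. Pycard, the adaptor ASC that AIM2 recruits, stood at 36.3 against 34.0 CPM, a ratio of 1.07 (0.937 to 1.21), and Casp1, the protease of the complex, at 104 against 78.6 CPM, 1.32 (1.22 to 1.43). The higher genes were Il1rn at 2.33 (2.14 to 2.53), the guanylate-binding protein genes Gbp2 at 2.12 (1.88 to 2.40) and Gbp5 at 1.98 (1.55 to 2.56), and Il1b at 1.77 (1.46 to 2.16). Il1rn encodes the antagonist of the cytokine that Il1b encodes. Nlrp1b, another inflammasome sensor, was 1.64-fold lower (1.43 to 1.88).

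Of 19 tested genes that act with ZBP1 in cell death 2 were higher, 0 lower, while 17 did not pass and the median was 0.09. Mlkl, the executor of necroptosis, stood at 41.7 against 25.3 CPM, a ratio of 1.65 (1.44 to 1.90). Cflar, which encodes the inhibitor cFLIP, stood at 322 against 164 CPM, 1.96 (1.86 to 2.07). Ripk3, the kinase between ZBP1 and MLKL, had 250 against 152 reads, a ratio of 1.29 (1.05 to 1.59), and Birc3, a ubiquitin ligase of the same pathway, 1.30 (1.22 to 1.39). The higher genes thus included both an effector and an inhibitor of cell death.

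The NOD pathway list, with 41 tested genes, held 4 higher (9.76%) and 3 lower (7.32%), shares that lie near those over all tested genes (6.47% and 7.23%). The other 34 did not pass, and the median log2 ratio of the list was -0.01. With a mean of at least 10 CPM 1 gene was lower, and with the interval bound itself at 1.5-fold 1 was higher. Ripk2, the kinase that both NOD receptors recruit, stood at 23.4 against 14.0 CPM, a ratio of 1.67 (1.39 to 2.02). The inhibitors Tnfaip3 (A20) and Nfkbia (IkB alpha) were higher as well, at 1.97 (1.84 to 2.11) and 1.58 (1.47 to 1.70). Slc15a3, a lysosomal peptide transporter, was the fourth, at 546 against 356 CPM. Other transporters on the list that passed the limit were lower: Slc15a2, a peptide transporter of the cell surface, had 39 reads in KO macrophages and 130 in WT macrophages, 4.26-fold lower (2.96 to 6.26), and Slc46a3 stood at 31.2 against 53.8 CPM, 1.73-fold lower (1.53 to 1.95). Casp12 was the third lower gene, at 13 against 22 reads. Slc15a3, Casp12 and Xrcc5 were named after their values were seen.

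Interferon genes themselves were at or near 0. Ifnb1 had 6 reads in KO macrophages and 0 in WT macrophages, where 3 reads would be 0.248 CPM, so a difference was not detectable at this depth. The 7 other interferon genes on the list (Ifna1, Ifna2, Ifna4, Ifna5, Ifnl2, Ifnl3 and Ifng) were listed at 0 in both libraries. Because some genes that macrophages use, such as Aif1, were also listed at 0, these are not read as absence of RNA. Of 18 tested genes of the interferon receptor pathway 2 were higher (Usp18, and the phosphatase gene Ptpn6 at 1.53, 1.47 to 1.58), 0 lower, while 16 did not pass and the median was 0.06. Stat2, a signal transducer of the type I interferon receptor, had a ratio of 1.44 (1.38 to 1.504), under the limit of 1.5. Stat3, a transducer of other cytokine receptors, was 1.30-fold lower (1.23 to 1.37), also under the limit.

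With libraries scaled to macrophage markers, the count of higher genes dropped by more than 1.5 times in 4 lists, to 1 partner of the kinases, 1 gene of DNA sensing, 2 of the NOD pathway and 1 of the interferon receptor pathway. Total counts as library sizes gave 1 higher gene each for the partners of the kinases and the interferon receptor pathway. Ppp1cc was counted as lower under both scalings and with the KO library thinned, and Enpp1, at 1.46-fold lower, fell under the limit in the thinned library. Scaling to macrophage markers also counted 1 of the other RNA sensors as lower, Dhx33, a helicase gene named after its values were seen, which was 1.42-fold lower (1.14 to 1.77) under TMM. With a limit of 2-fold, higher genes were counted in 2 lists, 4 among the RNA sensors and 2 among the inflammasome genes.

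**Figure D4:**
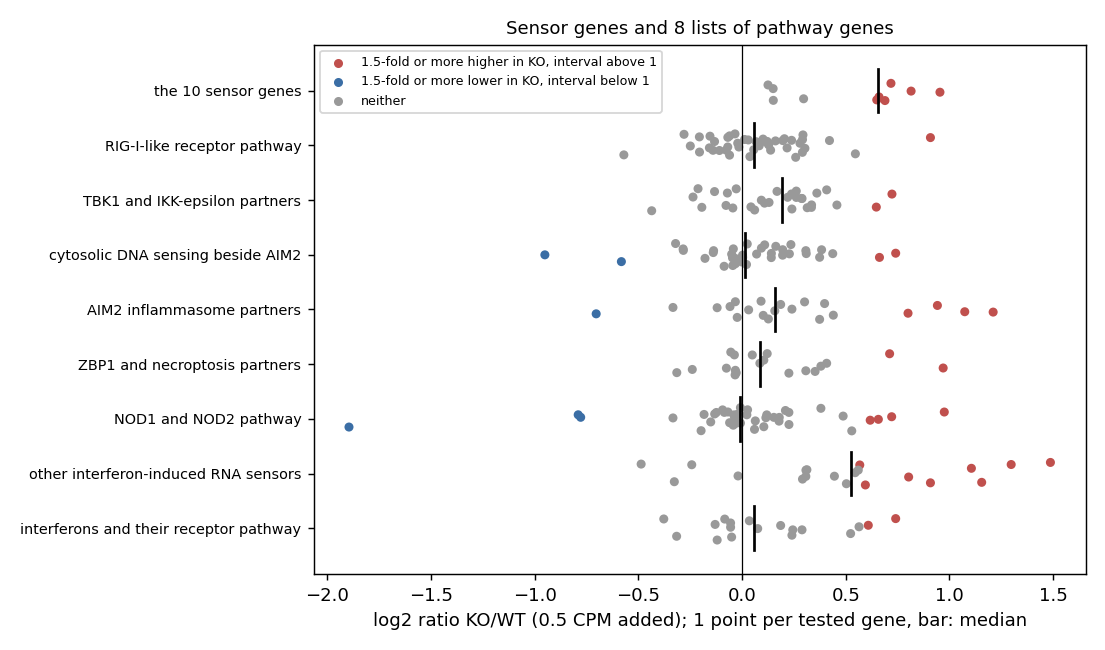
Log2 ratio of KO over WT with 0.5 CPM added (horizontal axis) for the 10 sensor genes and the tested genes of 8 pathway lists, 1 point per gene, spread vertically for legibility, with a black bar at each median. Red points are genes counted as higher, blue as lower and grey as neither; the medians are 0.66 for the sensors, 0.52 for the other interferon-induced RNA sensors and between -0.01 and 0.19 for the other lists.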

How the data were processed

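RNA sequencing was done on total RNA of 2 macrophage cultures, 1 per genotype. The authors deposited raw read counts per gene symbol in 1 table, per the file headers. The submitters' processing notes name HISAT2 (no version) and GRCm38. Counting program, annotation, strand setting and filters: not given in the sources used here.

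Counts were scaled with TMM (edgeR 4.0.16, R 4.3.3) to reads per 1000000 (CPM), and exact intervals at 95% came from scipy 1.17.1. Log2 ratios had 0.5 CPM added, which pulls low genes toward 0. The intervals cover counting error only. PCR reads lacking molecular identifiers are no independent molecules, so the intervals may be too narrow even for that error. With 1 library per genotype no p-value was computed. The calculation was run on simulated Poisson counts at these library sizes. Such counts hold no variation between mice, cultures or libraries, so the run says nothing about that variation.

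The 10 genes and the lists were chosen with earlier results of these data known. Named partners are the up to 5 largest log2 ratios per list among genes averaging 5 CPM or more, plus Mb21d1, Tmem173, Pycard, Casp1, Ripk2, Ripk3, Irf3, Irf7, Trim25, Ifnb1 and Tnfaip8l1. Some list members that this rule takes are left out of the text. Genes of like pattern are not named, because 2 libraries give each gene a single ratio. Positions and exon lengths came from GENCODE M21 (GRCm38). DESeq2 1.42.0 size factors, total counts, macrophage marker scaling, other filters, limits and added CPM, and a thinned KO library were alternatives.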

Additional observations from a re-analysis of the deposited data

How the results depend on the processing

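No paired analysis was possible because there was a single library of each genotype. The count of 6 higher sensor genes was also 6 with total counts, DESeq2 size factors, TMM without stromal markers and a KO library thinned to the WT depth. Under every alternative run 0 were lower. A mean of at least 10 CPM and no filter also gave 6, but these filters could not change the count. They use the same ratios, and the lowest mean of the 10 genes was 16.1 CPM (Nod2). Leaving out stromal markers multiplied every ratio by 0.9998, so that run hardly differed from TMM. Scaling to macrophage markers gave 3 and moved the median log2 ratio of all tested genes by -0.10, so changes under it are relative to that shift. Requiring the interval bound itself to reach 1.5-fold gave 4, and a limit of 2-fold gave 0. Over all tested genes 808 were higher and 904 lower. These counts were 412 and 223 under the 10 CPM filter, 323 and 597 at a limit of 2-fold, and 357 and 509 with the bound at 1.5-fold. Fewer genes can pass each of these. The balance changed as well under the 10 CPM filter, which all 10 sensor genes pass. Of the genes counted in either direction, 64.9% were higher under that filter and 47.2% in the main run. With total counts 651 genes were higher and 1061 lower, and with scaling to macrophage markers 583 and 1177. Of 268 recomputed values, genes and lists included, 208 were the same, 60 moved and none reversed. The same means a ratio inside its counting interval, a count within 1.5 times or a list median within 0.1. Only the 6 higher genes under the 5 other scalings and the medians of the 8 lists could be labelled reversed. Those 6 had ratios of at least 1.58 and the lowest scaling factor was 0.928, so for them a reversal was hardly possible. The other exon lengths for levels per kilobase were chosen after seeing the data. Depth limits Nod2 and Nod1 most.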
